A study of Mus musculus with 8 samples.

Results

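The genes described here encode 8 transcription factors of hepatocytes and of the endoderm that liver and pancreas share. They are Hnf4a, Foxa1, Foxa2, Foxa3, Cebpa, Cebpb, Onecut1 and Prox1, chosen by name, and all 8 were found among the 26520 genes of the deposited table. The series asks how much mRNA stays in the nucleus. PolyA RNA from nuclei and from cytoplasm was sequenced in mouse liver and in MIN6, an insulinoma-derived mouse line that stands in for beta cells of the pancreas. Every fraction has 2 libraries per source, 8 altogether. The liver nuclear RNA was the part that stayed in solution once chromatin had been spun out of the nuclei, so RNA bound to chromatin was not in it, and the liver cytoplasmic RNA was the supernatant of the nuclei. MIN6 cytoplasm was released with a mild detergent, and the nuclei were then spun through sucrose. The labels give no treatment, age or sex. The strain label differs in each of the 4 liver libraries, running from C57BL/6 to C57BL/9. The labels do not say whether the libraries of a fraction are different animals or cultures, so the p-values measure the spread between these libraries, which may be technical.

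HNF4A is a nuclear receptor that binds DNA as a homodimer and drives apolipoprotein, coagulation and metabolic genes of hepatocytes. The FOXA proteins are pioneer factors that open chromatin in foregut endoderm before liver and pancreas separate, and FOXA2 keeps a role in adult beta cells. C/EBP-alpha and C/EBP-beta are leucine zipper factors, the former known for hepatocyte maturation and metabolism and the latter for the acute phase response and regeneration. ONECUT1, also called HNF6, and PROX1 are homeodomain factors needed early in liver and pancreas development, and PROX1 also specifies lymphatic endothelium.

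Within each library, where no scaling enters, the order of these genes differed between sources and between fractions. Hnf4a was the highest of the 8 in all 4 liver libraries and Foxa2 the highest in all 4 MIN6 libraries. In liver the C/EBP genes changed places: the FPKM of Cebpb exceeded that of Cebpa in both nuclear libraries, and Cebpa exceeded Cebpb more than 4 times over in both cytoplasmic libraries. FPKM counts fragments per kilobase of transcript, so levels of different genes can be set side by side within a library.

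Sequence around the transcription starts is shown for Hnf4a, which has separate liver and pancreatic starts, and for the C/EBP pair, whose order differed between fractions. Each line holds 250 bases before and 50 after a RefSeq start on the gene's strand, build GRCm38.p6, with matches to the motif words given below in capitals.
Hnf4a, upstream start, chr2:163506607-163506906, plus strand: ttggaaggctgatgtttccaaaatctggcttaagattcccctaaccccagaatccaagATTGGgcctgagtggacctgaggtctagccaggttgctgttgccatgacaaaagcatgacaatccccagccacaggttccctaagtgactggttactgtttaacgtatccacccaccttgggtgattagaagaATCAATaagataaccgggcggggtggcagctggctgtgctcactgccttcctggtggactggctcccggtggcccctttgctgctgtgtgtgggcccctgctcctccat
Hnf4a, downstream start, chr2:163546905-163547204, plus strand: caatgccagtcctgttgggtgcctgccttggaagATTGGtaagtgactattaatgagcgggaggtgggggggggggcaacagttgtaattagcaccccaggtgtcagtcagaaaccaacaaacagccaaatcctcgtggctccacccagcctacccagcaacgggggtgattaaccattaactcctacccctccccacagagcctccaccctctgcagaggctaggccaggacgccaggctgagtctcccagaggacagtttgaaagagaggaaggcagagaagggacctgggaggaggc
Cebpa, chr7:35119043-35119342, plus strand: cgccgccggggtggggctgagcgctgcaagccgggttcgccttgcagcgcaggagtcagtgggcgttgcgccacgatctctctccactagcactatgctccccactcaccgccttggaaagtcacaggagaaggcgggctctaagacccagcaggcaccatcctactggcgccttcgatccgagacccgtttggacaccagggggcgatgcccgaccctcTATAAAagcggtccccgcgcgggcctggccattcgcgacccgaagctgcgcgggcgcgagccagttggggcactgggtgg
Cebpb, chr2:167688665-167688964, plus strand: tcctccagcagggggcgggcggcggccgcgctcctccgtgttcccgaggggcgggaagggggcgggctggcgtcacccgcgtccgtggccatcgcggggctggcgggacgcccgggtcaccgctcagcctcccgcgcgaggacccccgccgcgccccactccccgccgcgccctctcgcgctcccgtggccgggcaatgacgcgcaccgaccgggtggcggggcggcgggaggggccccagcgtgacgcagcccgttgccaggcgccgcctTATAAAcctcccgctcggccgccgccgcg

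The words were searched on both strands of the 12 starts that RefSeq lists for the 8 genes, and in 32851 promoter windows of the same length. They were TGTTTAC and TGTTTGC for FOXA, ATTGAT for ONECUT, TATAAA for a TATA box and CCAAT. For HNF4 they were CAAAGTCCA, CAAAGTTCA and CAAAGGTCA, and for C/EBP they were TTGCGCAA, TTGCGTAA, TTGCATAA, TTGCACAA and TTGCTGAA. As background, the upstream Hnf4a start is the one used in pancreatic islets and the downstream start the one used in adult liver. The upstream window held 1 ONECUT word at -59 from the start and 1 CCAAT, and the downstream window held 1 CCAAT and no ONECUT word. ONECUT words occurred in 7.54% of all windows and also in 1 Foxa2 window, at -213. TATA words, in 13.6% of all windows, occurred in 5 of the 12: at -30 in Cebpa, at 22 in Cebpb, downstream of the listed start, at -36 in Foxa3, at -34 in Prox1 and at -208 in a Foxa2 window. FOXA words, in 8.48% of all windows, occurred in 1 window each of Foxa1 and Prox1. CCAAT occurred in 37.4%, C/EBP words in 3.20% and HNF4 words in 1.33% of all windows, and neither of the last pair was in any of the 12. The deposited values are per gene and do not separate the Hnf4a starts.

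The libraries were shallow and their values were not on 1 scale. Summed FPKM ran from 35469 to 63355 in MIN6 and from 104923 to 1219625 in liver, and was 6.91 and 8.19 times higher in liver cytoplasm than in liver nuclei for replicates 1 and 2, against 1.70 and 1.78 times in MIN6. The reads behind each value were estimated from the smallest steps in FPKM, and came to between 922000 and 1843000 per library. The value of 3 reads on a 2 kb transcript ran from 0.0786 FPKM in MIN6 nuclear replicate 1 to 3.69 FPKM in liver cytoplasmic replicate 1. Intervals below are exact 95% Poisson intervals on estimated reads and cover counting error only. Fractions are as the sample titles give them. For MIN6 another label field names the opposite fraction, and the summed level of Neat1, Malat1, Meg3 and Xist, in rescaled units (FPKM per 1000000 of the library's summed FPKM), was 12627 and 3717 in the libraries titled nuclear and 155 and 62.9 in those titled cytoplasmic. The summed level of 8 hepatocyte markers was 15189 to 100359 rescaled units in liver and 122 to 469 in MIN6, and 8 of 8 beta-cell markers were at 0 in every liver library and above 0 in every MIN6 library.

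Fractions of a source were compared with limma on log2(FPKM + 1) of the deposited values, keeping genes whose mean FPKM was 1 or more. Calls were made at an adjusted p (Benjamini-Hochberg) under 0.05. A positive log2 ratio is higher in the nuclear libraries. In liver all 8 genes passed the filter and 4 were called cytoplasmic: Cebpa, Hnf4a, Foxa3 and Prox1. No gene of the 8 was called nuclear. Among all 10353 genes tested, 50.2% were called cytoplasmic and 2.93% nuclear, and the median log2 ratio was -1.64, so 4 of 8 is near the share of all genes. The 4 called genes lay below the all-gene median and the other 4 above it. The scale decides the direction of most of these ratios. After each library was centred on its median gene, 1 of the 8 was called cytoplasmic, Cebpa, against 11.7% of all genes, and 0 nuclear, against 11.4%. With each library rescaled to a sum of 1000000 instead, 2 were called nuclear, Foxa2 and Cebpb, against 17.6% of all genes, and 0 cytoplasmic, against 4.62%, with an all-gene median of 0.77. Centring with no filter, a setting added after the values were seen, called Foxa2 nuclear, against 33.5% of all genes, and Cebpa and Hnf4a cytoplasmic, against 11.4%. Ratios between genes within a library, or percentiles among all genes, are therefore given for most of the 8 genes below, beside the deposited values.

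**Figure D1:**
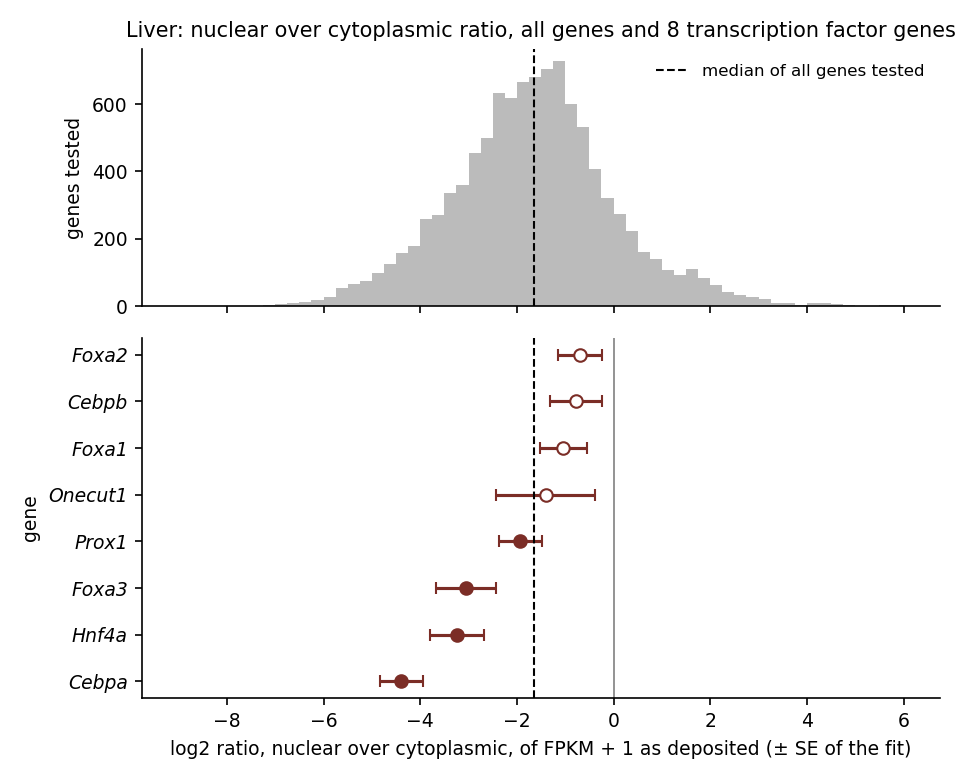
Log2 ratio of nuclear over cytoplasmic FPKM + 1 in liver, as deposited. The upper panel counts all 10353 genes tested in bins of the ratio, and the lower panel shows the 8 transcription factor genes with the SE of the fit, filled where the adjusted p was under 0.05. The dashed line is the all-gene median of -1.64: Cebpa at -4.39 lies farthest to its left and Foxa2 at -0.70 farthest to its right.

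Hnf4a was the highest of the 8 genes in every liver library and stood high among all genes. It read 37.5 and 19.6 FPKM in the liver nuclear libraries and 353 and 200 FPKM in the cytoplasmic ones. In MIN6 it read 0.156 and 0.162 FPKM in nuclei and 0.874 and 1.08 FPKM in cytoplasm, from an estimated 13, 13, 32 and 37 reads. The groups did not overlap in either source on the deposited scale, with the cytoplasmic libraries higher. Summed FPKM was also higher in the cytoplasmic libraries of both sources. Among genes above 0 in the same library Hnf4a lay between the 94.1st and 95.7th percentile in all 4 liver libraries, so its rank was alike in both fractions. In MIN6 it lay at the 27.3rd and 26.6th percentile in nuclei and at the 43.7th and 48.0th in cytoplasm.

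In liver the log2 ratio of Hnf4a was -3.24 (SE 0.56, limma adjusted p = 0.00852), at the 16.5th percentile of all genes. It was -1.26 (adjusted p = 0.0788) after median centring and -0.38 (adjusted p = 0.459) after rescaling. Centring with no filter gave -1.29 (adjusted p = 0.0491). In MIN6 its mean was below the filter. With no filter it was called cytoplasmic at a log2 ratio of -0.77 (SE 0.10, limma adjusted p = 0.0193), beside 24.2% of all 14130 genes then tested (3.6% were called nuclear). Centring without the filter gave -0.19 (adjusted p = 0.191), and Cebpa, listed at 0 in 3 of the 4 MIN6 libraries, was then the 1 gene of the 8 called, as nuclear, beside 35.7% of all genes called nuclear and 15% cytoplasmic.

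Between sources, levels were compared after each library was rescaled to a summed FPKM of 1000000, and are given in these rescaled units. Hnf4a was 212.5 and 187 rescaled units in liver nuclei against 4.40 and 4.55 in MIN6 nuclei. In cytoplasm it was 289 and 233 rescaled units in liver against 14.5 and 17.0 in MIN6. Liver was higher in both fractions, by a log2 difference of 5.19 in nuclei (SE 0.33, limma adjusted p = 0.00318) and 3.96 in cytoplasm (SE 0.23, adjusted p = 0.00401).

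In the nuclear comparison 6 of the 7 genes tested were called higher in liver, beside 16.8% of all 13574 genes, and 0 lower, beside 15.2%. In the cytoplasmic comparison 4 of 8 were called higher, beside 11.9% of all 12866 genes, and 1 lower, beside 35.6%. Foxa1 in both fractions, Onecut1 in cytoplasm and Cebpa in nuclei were at 0 in MIN6 and entered through liver alone. In MIN6 cytoplasm Cebpa was at 0 and at about 1 read. These counts, here and under the other settings below, are therefore descriptions, and the Foxa1 and Cebpa calls are not read as tests. The nuclear calls were Hnf4a, Foxa1, Foxa3, Cebpa, Cebpb and Prox1, and the cytoplasmic calls were Hnf4a, Foxa3, Cebpa and Cebpb as higher and Foxa2 as lower. With 1 library left out, the number called higher was 2 to 3 in nuclei and 2 to 4 in cytoplasm, and Hnf4a was called under each of these omissions. After centring, 6 were called higher in each fraction, beside 19.5% of all genes in nuclei and 16.2% in cytoplasm, and 1, Foxa2, lower in cytoplasm, beside 14.8% and 16.6%. With a pseudocount of 0.1 the nuclear calls fell to 4, without Foxa3 (adjusted p = 0.0783) and Prox1 (adjusted p = 0.0912). On the deposited scale 6 were called higher in each fraction, beside 52.4% and 68.3%, and 0 lower, beside 4.91% and 3.9%. Whole liver and a cell line differ in cell types as well as in source, and in bulk RNA fewer cells of a type cannot be told apart from less RNA per cell. The liver and MIN6 fractions were also prepared differently. Preparation cannot be told apart from source here or in the difference of fraction ratios given below.

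**Figure D2:**
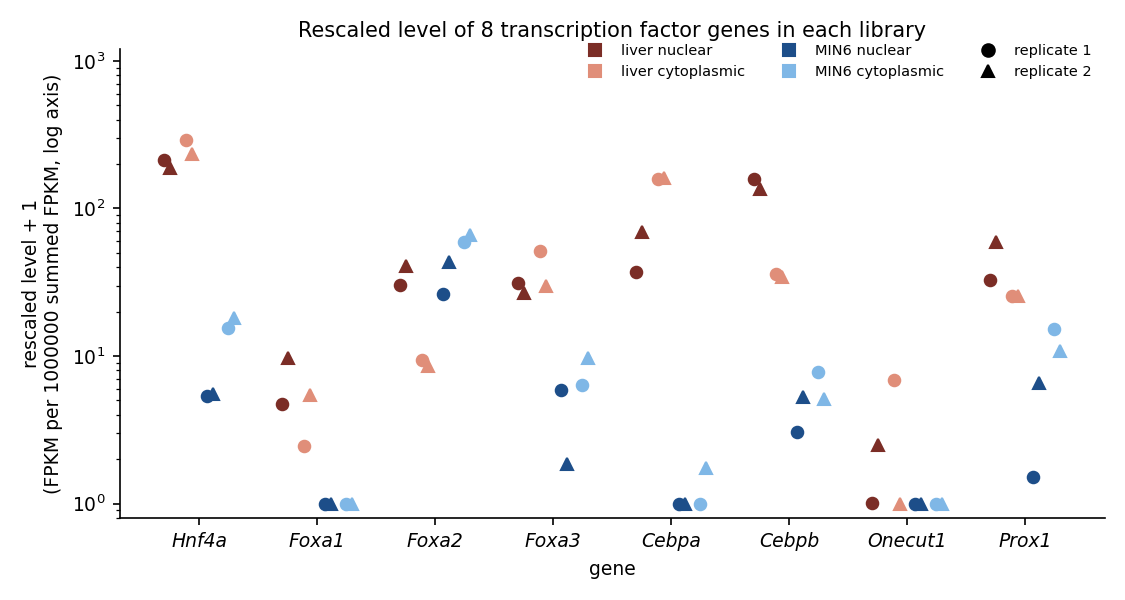
Level of each gene in each library, as FPKM per 1000000 of the library's summed FPKM plus 1, on a log axis. Colours give source and fraction, and circles and triangles replicates 1 and 2. Hnf4a is the highest gene in liver (187 to 289 rescaled units) and Foxa2 the highest in MIN6 (25.5 to 64.8 rescaled units), and Foxa1 and Onecut1 sit at the base of the axis in MIN6.

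Foxa2 was near in level in liver and MIN6 nuclei once libraries were rescaled, and its place in liver differed by fraction. It read 5.17 and 4.17 FPKM in liver nuclei and 10.2 and 6.50 FPKM in liver cytoplasm. The cytoplasmic values rest on an estimated 9 and 7 reads, with intervals of 4.89 to 20.3 and 2.44 to 12.5 FPKM, against 40 and 44 reads in the nuclear libraries. In MIN6 it read 0.904 and 1.51 FPKM in nuclei and 3.51 and 4.11 FPKM in cytoplasm, from 36 to 67 reads. The liver cytoplasmic libraries were above the nuclear ones on the deposited scale and did not overlap with them. By rank within a library the order turned: Foxa2 lay at the 69.7th and 72.8th percentile of genes above 0 in liver nuclei and at the 43.4th and 41.0th in liver cytoplasm. In MIN6 it lay at the 61.6th and 74.4th percentile in nuclei and at the 77.0th and 79.2nd in cytoplasm.

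Between liver fractions the log2 ratio of Foxa2 was -0.70 (SE 0.46, limma adjusted p = 0.249), at the 75.1st percentile of all genes. Centring turned it to 1.28 (adjusted p = 0.0525) and rescaling to 1.97 (adjusted p = 0.0361), which called it nuclear. In MIN6 Foxa2 was the only gene of the 8 that passed the filter, and it was called cytoplasmic at -1.13 (SE 0.27, limma adjusted p = 0.0166), as were 46.1% of all 6017 genes tested, beside 11.8% called nuclear. Its MIN6 ratio was -0.88 (adjusted p = 0.184) after rescaling and -0.50 (adjusted p = 0.203) after centring, where 24.5% of all genes were called nuclear and 28.2% cytoplasmic. The call was lost without either MIN6 cytoplasmic library, at adjusted p = 0.0915 without replicate 1 and 0.130 without replicate 2.

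The difference between the liver and MIN6 fraction ratios was tested as an interaction, where 0.677% of 5315 genes were called higher and 26.6% lower in liver. Foxa2 alone of the 8 passed the filter, and its difference of 0.44 (SE 0.52, limma adjusted p = 0.538) was not called. It was 1.83 (adjusted p = 0.0664) after centring and 2.85 (adjusted p = 0.0550) after rescaling. With no filter other genes of the 8 entered, but most of their MIN6 values lay under 1 FPKM, where adding 1 holds the MIN6 log2 ratio near 0 and the difference restates the liver ratio. The 4 then called lower (Cebpa, Foxa3, Hnf4a and Prox1), beside 23.4% of all genes lower and 2.27% higher, are therefore not read as a difference between sources. For Prox1 the difference was -1.28 with no filter and 2.81 after rescaling, and for Hnf4a -2.47 and 1.23. With centring and no filter Foxa2 was called higher, at 1.70 (adjusted p = 0.0279), beside 12.7% of all genes, and Cebpa, which the same limit touches, lower, beside 4.61%.

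Between sources Foxa2 was 29.3 and 39.8 rescaled units in liver nuclei and 25.5 and 42.3 in MIN6 nuclei, and these groups overlapped. The log2 difference of 0.05 (SE 0.44, limma adjusted p = 0.938) was not called, and it changed sign without single libraries. In cytoplasm Foxa2 was 8.33 and 7.56 rescaled units in liver and 58.0 and 64.8 in MIN6. MIN6 was higher by a log2 difference of -2.80 for liver over MIN6 (SE 0.19, limma adjusted p = 0.00513), and -1.74 after centring (adjusted p = 0.0180). On the deposited scale, where liver values run higher as a whole, the cytoplasmic difference turned to 0.93 (adjusted p = 0.0691) and the nuclear difference was called, at 1.37 (adjusted p = 0.0173).

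Foxa3 is the FOXA gene known as the most abundant in adult liver. It read 5.34 and 2.70 FPKM in liver nuclei, 62.0 and 24.6 FPKM in liver cytoplasm, 0.174 and 0.0302 FPKM in MIN6 nuclei and 0.327 and 0.547 FPKM in MIN6 cytoplasm. The MIN6 values rest on an estimated 7, 1, 6 and 9 reads. Foxa3 and Foxa2 stood close in liver nuclei, where the ratio of Foxa3 to Foxa2 was 1.03 (interval 0.657 to 1.65) and 0.647 (0.388 to 1.06), and apart in liver cytoplasm, where it was 6.10 (2.81 to 13.3) and 3.79 (1.73 to 11.0). Each interval of a ratio comes from an exact binomial interval on the reads of the pair. In MIN6 Foxa2 was the higher of the pair in all 4 libraries, with Foxa3 at between 0.0200 and 0.193 of its level.

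For Foxa3 the liver log2 ratio was -3.05 (SE 0.62, limma adjusted p = 0.0132), -1.07 after centring (adjusted p = 0.146). Foxa3 was higher in liver than in MIN6 by a log2 difference of 3.13 in nuclei (SE 0.68, adjusted p = 0.0372) and 2.32 in cytoplasm (SE 0.44, adjusted p = 0.0299). In cytoplasm that call was lost without any of the 4 libraries, at adjusted p of 0.0922 to 0.190, and in nuclei without MIN6 replicate 2 or either liver library, at 0.0618 to 0.282.

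Foxa1 was low in liver and listed at 0 in all 4 MIN6 libraries. It read 0.657 and 0.913 FPKM in liver nuclei and 1.75 and 3.84 FPKM in liver cytoplasm, from an estimated 8, 15, 2 and 7 reads. The deposited values did not overlap, with cytoplasm higher, while in rescaled units the order was 3.72 and 8.70 in nuclei and 1.44 and 4.47 in cytoplasm, which overlapped. The liver log2 ratio was -1.04 (SE 0.49, limma adjusted p = 0.129) and was not called. Foxa1 passed the filter between sources through liver alone, so no test or fold against MIN6 is given. The value of 3 reads, taken as the floor, was 0.0493 to 0.119 FPKM in the MIN6 libraries.

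Cebpa and Cebpb share a gene structure of 1 exon and no intron, and in liver they took opposite places in the fractions. Cebpa read 6.35 and 7.16 FPKM in liver nuclei and 191 and 137 FPKM in liver cytoplasm. Cebpb read 27.9 and 14.2 FPKM in nuclei and 42.6 and 28.7 FPKM in cytoplasm, from an estimated 159, 110, 26 and 24 reads. The Cebpa groups lay far apart, and any cytoplasmic library exceeded any nuclear one by 19.1 to 30.0 times on the deposited scale. For Cebpb the same quotients ran from 1.03 to 3.00.

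The ratio of Cebpa to Cebpb within a library does not depend on scaling. It was 0.227 (interval 0.167 to 0.306) and 0.504 (0.376 to 0.663) in liver nuclei and 4.47 (2.98 to 7.04) and 4.77 (3.12 to 7.62) in liver cytoplasm. The geometric mean of the ratio was 13.6 times higher in cytoplasm, and the groups did not overlap. With 2 libraries against 2 an exact permutation test, two-sided, cannot give a p below 0.333. By rank, Cebpa stood at the 74.0th and 83.2nd percentile in liver nuclei and at the 92.6th and 92.4th in cytoplasm, and Cebpb stood at the 93.9th and 91.5th in nuclei and at the 75.8th and 74.8th in cytoplasm.

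**Figure D3:**
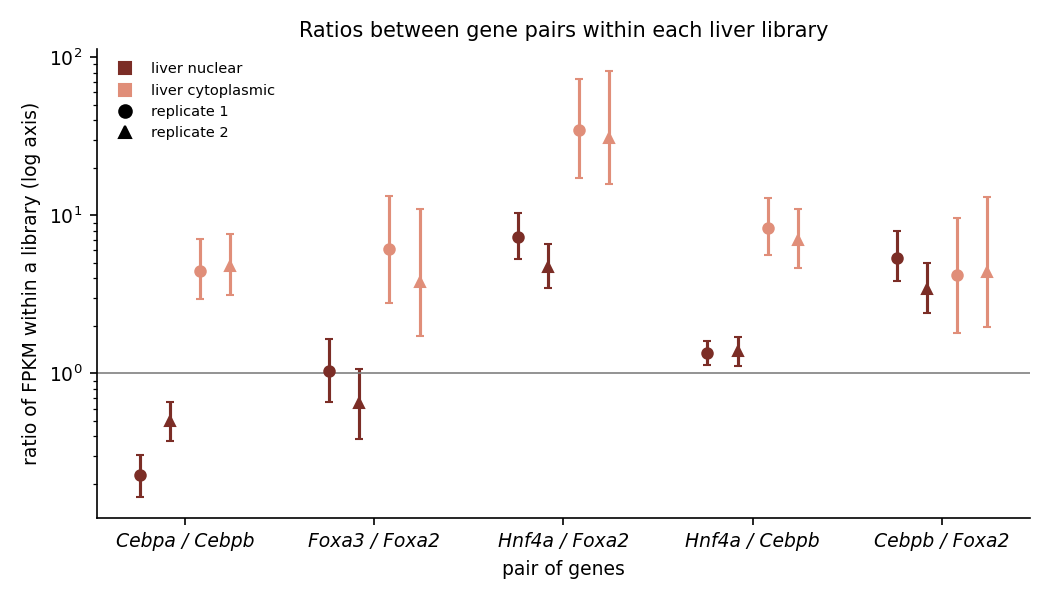
Ratio of FPKM between pairs of genes within each liver library, on a log axis, with bars for the 95% interval from counting error. Cebpa over Cebpb lies below 1 in the nuclear libraries (0.227 and 0.504) and above 4 in the cytoplasmic ones (4.47 and 4.77), Hnf4a over Foxa2 and over Cebpb is also lower in nuclei, and Cebpb over Foxa2 overlaps between fractions.

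Hnf4a, like Cebpa, stood higher against Cebpb and Foxa2 in liver cytoplasm than in liver nuclei. The ratio of Hnf4a to Cebpb was 1.34 and 1.38 in liver nuclei and 8.27 and 6.97 in cytoplasm. The ratio of Hnf4a to Foxa2 was 7.26 and 4.69 in nuclei and 34.7 and 30.7 in cytoplasm. The ratio of Cebpb to Foxa2 was 5.40 and 3.40 in nuclei and 4.19 and 4.41 in cytoplasm, which overlapped. In MIN6 the ratio of Hnf4a to Foxa2 was 0.173 and 0.107 in nuclei and 0.249 and 0.262 in cytoplasm, so Foxa2 exceeded Hnf4a in all 4 libraries of that source and fell short of it in all 4 of liver.

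The liver log2 ratio of Cebpa was -4.39 (SE 0.44, limma adjusted p = 0.00346), at the 5.44th percentile of all genes. It was still called after centring, at -2.41 (adjusted p = 0.0191), and was -1.65 (adjusted p = 0.0737) after rescaling. The ratio of Cebpb was -0.78 (SE 0.53, limma adjusted p = 0.264), at the 73.3rd percentile. It turned to 1.20 (adjusted p = 0.0805) after centring and to 2.07 (adjusted p = 0.0305) after rescaling, which called it nuclear. Without either liver nuclear library no gene of the 10382 or 10465 then tested was called by limma, although 4183 and 3579 had an unadjusted p under 0.05. The 4 liver calls, of Cebpa, Hnf4a, Foxa3 and Prox1, were thus lost without nuclear replicate 1 or 2, with adjusted p of 0.0889 to 0.165 and log2 ratios of -1.88 to -4.47.

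Markers of endothelial and immune cells also differed between the liver fractions. In rescaled units the all-gene median log2 ratio was itself 0.77, toward nuclei. The summed level of 6 endothelial markers was 595 and 835 rescaled units in nuclei and 108 and 112 in cytoplasm, and that of 5 Kupffer and other immune cell markers was 714 and 1308 in nuclei and 197 and 585 in cytoplasm. All 6 endothelial markers were above 0 in all 4 libraries, and at most 1 immune marker was at 0. Among the immune markers Clec4f, Cd68 and Ptprc were higher in both nuclear libraries. Cd74, at 75.5 and 565 rescaled units in nuclei and 62.6 and 375 in cytoplasm, and Csf1r overlapped between fractions. Stellate cell and fibroblast markers overlapped between fractions, at 139 and 160 rescaled units in nuclei and 118 and 145 in cytoplasm. Bile duct markers did too, at 94.3 and 138 and at 68.7 and 119. Hepatocyte markers were 15189 and 22986 rescaled units in nuclei and 97432 and 100359 in cytoplasm. Cebpb is known to be expressed in macrophages and Prox1 in lymphatic endothelium, and the part of these cells in the fraction values of Cebpb, Foxa2 and Prox1 was not tested. The annotated exon of Cebpb shares 312 of its 1504 bases with Tmem189 on the opposite strand, and whether counting used strand is not given in the sources used here. Tmem189 read 3.81 and 2.59 FPKM in liver nuclei and 16.2 and 5.91 FPKM in cytoplasm, with cytoplasm higher and no overlap on the deposited scale.

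In MIN6 Cebpa was listed at 0 in 3 libraries and at 0.0462 FPKM, about 1 read, in cytoplasmic replicate 2. Cebpb was at 0.0735 and 0.153 FPKM in MIN6 nuclei and 0.413 and 0.259 FPKM in cytoplasm, from an estimated 2 to 5 reads a library. Cebpa was 35.9 and 68.2 rescaled units in liver nuclei and 156 and 159 in liver cytoplasm. It entered the comparison between sources through liver, so no test against MIN6 is given. Cebpb was 158 and 135 rescaled units in liver nuclei against 2.07 and 4.29 in MIN6 nuclei, and 35.0 and 33.3 in liver cytoplasm against 6.83 and 4.09 in MIN6 cytoplasm. Liver was higher by a log2 difference of 5.19 in nuclei (SE 0.44, limma adjusted p = 0.00489) and 2.48 in cytoplasm (SE 0.30, adjusted p = 0.0136). In MIN6 nuclear replicate 1 Cebpb lay under the 3-read floor of 2.95 rescaled units, so these sizes are uncertain. Cebpb was not called without either liver library in cytoplasm (adjusted p = 0.105 and 0.108) or in nuclei (adjusted p = 0.0939 and 0.0959).

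**Figure D4:**
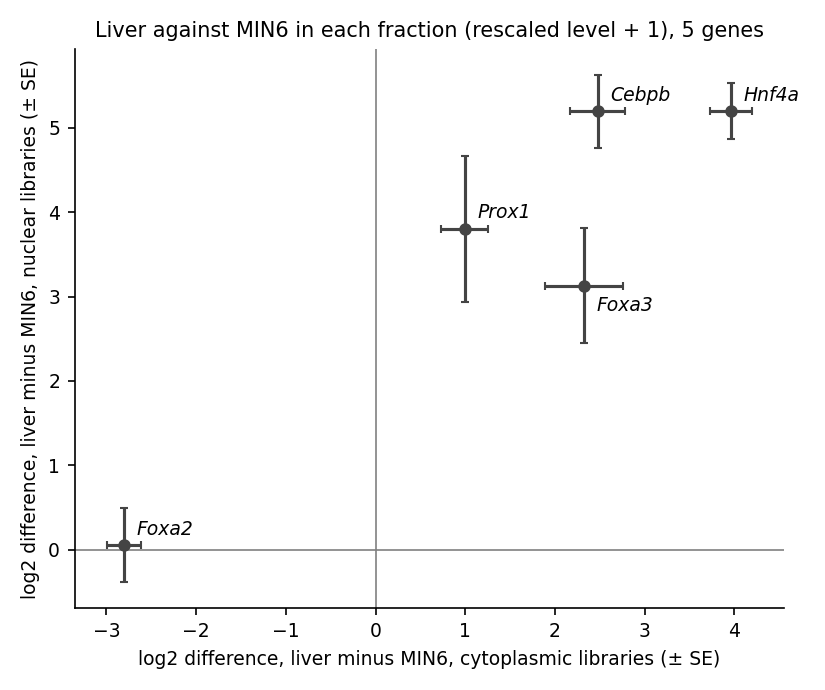
Log2 difference of liver over MIN6 in cytoplasmic libraries (horizontal axis) and nuclear libraries (vertical axis), on rescaled levels plus 1, with the SE of each fit, for the 5 genes above 0 in all 8 libraries. Hnf4a and Cebpb lie at 5.19 on the nuclear axis and at 3.96 and 2.48 on the cytoplasmic one, and Foxa2 lies at 0.05 and -2.80. For Foxa3, Cebpb and Prox1, 1 of the 2 MIN6 nuclear libraries lay at or under the floor of 3 reads, so their nuclear sizes are uncertain.

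Prox1 read 5.65 and 6.08 FPKM in liver nuclei and 30.0 and 21.0 FPKM in liver cytoplasm. The groups did not overlap on the deposited scale. In MIN6 it read 0.0185 and 0.199 FPKM in nuclei and 0.858 and 0.620 FPKM in cytoplasm, from an estimated 3, 29, 58 and 39 reads, with the nuclear libraries more than 10 times apart. The liver log2 ratio was -1.93 (SE 0.44, limma adjusted p = 0.0182), at the 43.0th percentile of all genes, and centring brought it to 0.05 (adjusted p = 0.922), so Prox1 stood near the median liver gene. Prox1 was 32.0 and 58.0 rescaled units in liver nuclei against 0.521 and 5.57 in MIN6 nuclei, a log2 difference of 3.80 (SE 0.87, limma adjusted p = 0.0411). That call was lost without any of the 4 libraries, at adjusted p of 0.0791 to 0.311. In cytoplasm Prox1 was 24.6 and 24.4 rescaled units in liver and 14.2 and 9.79 in MIN6, and the difference of 0.99 (SE 0.26, adjusted p = 0.0597) was not called. It was called without either MIN6 library (adjusted p = 0.0294 and 0.0492), and centring brought it to 2.05 (adjusted p = 0.0171).

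Onecut1 could not be measured well. It was listed at 0.000104 and 0.156 FPKM in liver nuclei, 7.10 and 0.000394 FPKM in liver cytoplasm and 0 in all MIN6 libraries. Its liver libraries disagreed within each fraction, with about 11 reads in cytoplasmic replicate 1 and fewer than 1 in replicate 2. Of its annotated exon bases, 52.8% are shared with Gm20649, a long noncoding RNA on the same strand, which read 0.362 and 7e-06 FPKM in nuclei and 3.05 and 3.29 FPKM in cytoplasm, so the split of reads between the pair is uncertain. The summed FPKM of both was 0.362 and 0.156 in nuclei and 10.2 and 3.29 in cytoplasm, with no overlap on the deposited scale. The liver log2 ratio of Onecut1 was -1.40 (SE 1.02, limma adjusted p = 0.290). Onecut1 passed the filter through liver cytoplasmic replicate 1 alone. Without cytoplasmic replicate 2 the ratio was -2.91, which that library alone sets, so it is not read as a test.

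In liver nuclei the mean order was Hnf4a, Cebpb, Cebpa, Prox1, Foxa2, Foxa3, Foxa1 and Onecut1. On the deposited scale, which differs between libraries, the ranges of Hnf4a and Cebpb overlapped, as did those of Foxa2 and Foxa3. Within each liver nuclear library Hnf4a exceeded Cebpb, at ratios of 1.34 and 1.38, while Foxa2 and Foxa3 changed places. In liver cytoplasm the mean order was Hnf4a, Cebpa, Foxa3, Cebpb, Prox1, Foxa2, Onecut1 and Foxa1. The ranges of Foxa3, Cebpb and Prox1 overlapped, as did that of Onecut1 with those of Foxa2 and Foxa1. Within each liver cytoplasmic library Foxa3 and Cebpb exceeded Prox1, and Foxa2 exceeded Onecut1. In MIN6 nuclei Foxa2 stood apart and Hnf4a, Cebpb, Prox1 and Foxa3 followed, with overlap except between Hnf4a and Cebpb, while in MIN6 cytoplasm the order was Foxa2, Hnf4a, Prox1, Foxa3 and Cebpb, and the last pair overlapped.

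The genes lie on 5 chromosomes in GENCODE M21 (GRCm38, the build called mm10). Cebpa (chr7:35119293-35121928) and Cebpb (chr2:167688915-167690418) have 1 exon each. Foxa1 (chr12:57540628-57546916), Foxa2 (chr2:148042877-148046969), Foxa3 (chr7:19013284-19023538) and Onecut1 (chr9:74861921-74891781) have 2 exons, Prox1 (chr1:190118035-190170714) has 5 and Hnf4a (chr2:163506808-163572910) has 10 in the transcript used for length. The intronless Cebpa had the lowest liver ratio and the intronless Cebpb the 2nd highest. The genes' 3' untranslated regions run from 506 bases in Cebpb to 5185 in Prox1. ATTTA, the core of AU-rich elements that shorten mRNA life, occurs 0 times in those of Cebpa, Cebpb and Foxa3, 2 times in Hnf4a, 3 in Foxa2, 4 in Foxa1, 7 in Onecut1 and 16 in Prox1.

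Of 32 other endodermal and hepatic transcription factors, 26 were tested between liver fractions, and 0 were called nuclear and 16 cytoplasmic, beside 2.93% and 50.2% of all genes, with a median log2 ratio of -1.88 against -1.64 for all genes. After centring 0 of the 26 were called either way by limma, beside 11.4% nuclear and 11.7% cytoplasmic, with a median of 0.10 against 0.34. The lowest ratios were those of Nfix, a nuclear factor I gene, at -3.54 (adjusted p = 0.00427), Xbp1, a regulator of secretory capacity, at -3.01 (adjusted p = 0.00546) and Foxo1, a target of insulin signalling, at -2.70 (adjusted p = 0.00988). In MIN6 8 were tested, and Atf5 (-2.85, adjusted p = 0.00225), Foxp1 (-1.94, adjusted p = 0.00968) and Xbp1 (-1.48, adjusted p = 0.0233) were called cytoplasmic, beside 46.1% of all genes.

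Between sources 17 of 31 of these factors were called higher in liver nuclei and 1 lower, beside 16.8% and 15.2% of all genes, and 12 of 28 higher in liver cytoplasm and 3 lower, beside 11.9% and 35.6%. Genes at 0 in MIN6 entered these counts through liver alone. Hhex, a homeobox factor of early liver and pancreas, was 170 and 146 rescaled units in liver nuclei and 75.4 and 79.0 in liver cytoplasm, and was listed at 0 in all MIN6 libraries, as was Klf15 and as were 9 of the 32 in all. Foxm1, which drives the cell cycle, was lower in liver nuclei than in MIN6 nuclei by a log2 difference of -3.78 (limma adjusted p = 0.0103). In cytoplasm it was 0 and 0.647 rescaled units in liver against 44.7 and 56.0 in MIN6. It entered the cytoplasmic comparison through MIN6 alone, so no test is given there.

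Among 17 other C/EBP genes and regulators of C/EBP or HNF4A activity, 13 were tested between liver fractions, and 4 were called cytoplasmic and 0 nuclear, beside 50.2% and 2.93% of all genes, with a median of -1.10 against -1.64. Cebpg, which forms dimers with the other C/EBP proteins, had the lowest ratio in liver, -3.03 (adjusted p = 0.00529), and in MIN6, -2.54 (adjusted p = 0.00208). After centring 3 of the 13 were called nuclear and 0 cytoplasmic, beside 11.4% and 11.7% of all genes, and the 3, Atf4, Ddit3 and Ep300, are named because the count is small. Ddit3, which encodes the stress factor CHOP, a partner that blocks C/EBP binding, was lower in liver than in MIN6 by log2 differences of -4.13 in nuclei and -4.42 in cytoplasm (adjusted p = 0.0158 and 0.00556), and Trib3, a pseudokinase induced by the same stress pathway, by -3.17 and -4.33 (adjusted p = 0.0270 and 0.00311).

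Most textbook target genes were called cytoplasmic in liver on the deposited scale. Of the targets of HNF4A 13 of 15 tested were called cytoplasmic, of the targets of FOXA proteins 7 of 9, and of the targets of C/EBP proteins 11 of 12, with 0 called nuclear in each list and median log2 ratios of -3.63, -4.23 and -5.11, beside 50.2% of all genes called cytoplasmic and a median of -1.64. These lists share members, such as Alb in the FOXA and C/EBP lists and Ttr in the HNF4A and FOXA lists. After centring 8 of 15, 5 of 9 and 8 of 12 were called cytoplasmic, beside 11.7% of all genes, and 1 FOXA target, Igfbp1, was called nuclear. Alb, the albumin gene, read 649 and 738 FPKM in nuclei and 41591 and 32866 FPKM in cytoplasm, a log2 ratio of -5.74 (adjusted p = 0.00346). Otc, a urea cycle gene, had a ratio of -4.61 (adjusted p = 0.00346).

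Between sources 14 of 15 HNF4A targets, 9 of 9 FOXA targets and 12 of 13 C/EBP targets tested were called higher in liver cytoplasm, beside 11.9% of all genes, and 14 of 15, 9 of 10 and 12 of 13 in liver nuclei, beside 16.8%, with 0 lower. The lists hold liver targets, and many of these genes were at 0 in MIN6 and entered through liver alone. These counts are therefore descriptions. The median level over each list was 213, 1237 and 949 rescaled units in liver nuclei, 351, 1253 and 1587 in liver cytoplasm and 0 in both MIN6 fractions, where 8, 6 and 8 of the genes were listed at 0 in every library. Of 10 textbook beta-cell targets of FOXA2 and HNF4A, 6 were called lower in liver in each fraction, beside 15.2% of all genes in nuclei and 35.6% in cytoplasm, and 6 were listed at 0 in every liver library. In liver cytoplasm 3 of the 10 were called higher, Pklr, Slc2a2 and Hadh, and in nuclei 2, Slc2a2 and Pklr. Genes at 0 in every liver library entered through MIN6 alone, and Pklr and Slc2a2 entered the cytoplasmic comparison through liver alone. The beta-cell counts are therefore descriptions too. Slc2a2, which encodes the glucose transporter GLUT2 of both tissues, was at 43.5 and 53.8 rescaled units in cytoplasm against 0 in both MIN6 cytoplasmic libraries.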

How the data were processed

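The deposited values are 1 FPKM per gene and library, which the authors made with TopHat and Cuffdiff on mouse build mm10, per the submitters' processing notes. The sources used here do not give versions, gene annotation, filters or scaling, and the table does not name its unit: FPKM is taken from the tool and the values. Of 26520 genes, 25522 had an identifier in GENCODE M21, used for positions and lengths, and 10324 were at 0 everywhere. An exact 0 is a listed value, not absence.

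Values were analysed as log2(value + 1) with limma 3.58.1 in R 4.3.3 (lmFit, eBayes, no trend), two-sided, with Benjamini-Hochberg adjustment over all genes with a mean of at least 1. Fraction ratios and the interaction used deposited FPKM, and liver against MIN6 used values rescaled to a sum of 1000000 per library. Ratios understate changes of low genes. Median centring subtracted each library's median over genes above 0 in all libraries compared. Reads per value were estimated from the mode of low FPKM times length in 2620 genes with 1 transcript longer than 1500 bases, and 3 reads were taken as the floor. Scripts were tested on simulated data. Promoter sequences are RefSeq's.

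Text names all 8 genes, the 3 largest called ratios each way per list, and the 3 genes most like each member, except for some results that are not reported here. The members and lists were chosen with earlier results of these data known. Other scalings, filters and pseudocounts, a replicate block and leaving out each library were tried as alternatives.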

Additional observations from a re-analysis of the deposited data

How the results depend on the processing

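Scaling and the choice of libraries both changed these results. In liver, centring gave 1182 genes nuclear and 1212 cytoplasmic, with 1 of the 8 factors cytoplasmic, and turned Foxa1 to 0.94, Foxa2 to 1.28, Cebpb to 1.20, Onecut1 to 0.57 and Prox1 to 0.051. Rescaling gave 2141 and 562 genes, with 2 factors nuclear and 0 cytoplasmic, and turned Foxa1 to 0.89, Foxa2 to 1.97, Cebpb to 2.07 and Prox1 to 0.79. Centring with no filter, added after seeing the data, gave 4718 and 1602 genes, 1 factor nuclear and 2 cytoplasmic, and Foxa1 0.92, Foxa2 1.26, Cebpb 1.18, Onecut1 0.55 and Prox1 0.027. A mean of at least 5 gave 139 nuclear genes. In MIN6, nuclear and cytoplasmic calls were 1472 and 1695 after centring and 239 and 924 at a mean of at least 5, each with 0 factors cytoplasmic, 1107 nuclear after rescaling, 413 nuclear in 1 fit over all libraries, and 5040 nuclear after centring with no filter, with 1 factor nuclear (Cebpa, listed at 0 in 3 of 4 libraries) and 0 cytoplasmic. No filter alone gave 2 factors cytoplasmic.

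For the difference of ratios, higher and lower calls were 103 and 57 after centring, 204 and 16 after rescaling, 273 and 2817 with no filter (4 factors lower, with MIN6 ratios held near 0 by the pseudocount), 8 and 631 at a mean of at least 5, and 1521 and 554 after centring with no filter (1 factor each way). A pseudocount of 0.1 gave 50 lower, and rescaling without the 10 highest genes gave 8 lower. Liver against MIN6 in cytoplasm gave 2140 genes lower after centring, 2031 with no filter as well, and 7015 higher and 401 lower on the deposited scale, where 0 factors were lower and Foxa2 turned to 0.93. In nuclei the deposited scale gave 3909 and 366, and a pseudocount of 0.1 left 4 factors called in place of 6.

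Leaving out 1 library at a time, calls in liver ran from 0 to 433 nuclear and 0 to 5802 cytoplasmic genes (0 to 5 factors), and in MIN6 from 105 to 867 and 1069 to 2663 (0 to 1 factor). For the difference of ratios they ran from 0 to 132 higher and 0 to 2660 lower. Liver against MIN6 in cytoplasm ran from 927 to 1312 higher (2 to 4 factors) and 2558 to 2688 lower, and in nuclei from 570 to 1672 higher (2 to 3 factors) and 347 to 1246 lower, with Foxa2 from -0.30 to 0.41. The liver count of factors without cytoplasmic replicate 2 includes Onecut1, which passed the filter through cytoplasmic replicate 1 alone. The cause of these changes was not tested. Where limma called 0 genes, between 1536 and 4183 had an unadjusted p under 0.05.

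The labels share replicate numbers across fractions and sources without saying what they mark. Deviations of libraries with the same number had an r over genes of 0.0425 in liver and 0.0452 in MIN6. Counting error adds to these deviations, so a low r cannot exclude pairing. In liver, Cd74 was 75.5 and 565 rescaled units in nuclei and 62.6 and 375 in cytoplasm for replicates 1 and 2. Summed red cell markers also moved the same way in both fractions, while Clec4f, at 480 and 447 and at 67.0 and 87.6, did not. Whether libraries with the same number share an animal was not tested, and the main fits did not pair them. With the replicate number as a block, the 4 liver calls and the Foxa2 call in MIN6 held, Foxa3 in cytoplasm between sources was not called (adjusted p = 0.0746), and 2835 genes were lower there in liver in place of 4581. Foxa1, Foxa3, Cebpb and Cebpa in MIN6, and Foxa1, Foxa2 and Onecut1 in liver cytoplasm, rested on 11 estimated reads or fewer per library.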

Other observations

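For each of the 5 genes above 0 in all 8 libraries, the 3 genes with the most similar pattern were found by Pearson r of the log2 rescaled level + 1 over the 8 libraries, among 9923 genes with a mean of at least 5 rescaled units (FPKM per 1000000 of summed FPKM). The libraries differ in source, fraction, depth and scale, which all genes share, so these r are descriptions with no test. For Hnf4a they included Plin2 and Paqr9 (r = 0.996 and 0.995), and 430 genes had an r over 0.95. For Cebpb they were Ppm1k, Ddi2 and Pacsin3 (r = 0.988, 0.988 and 0.986), with 222 genes over 0.95. For Foxa2 they were Gca, Tmem101 and Sept8 (r = 0.996, 0.985 and 0.984), with 40 genes over 0.95, for Foxa3 Acadl, Hsd17b11 and Hsd17b4 (r = 0.987, 0.982 and 0.981), with 28, and for Prox1 Arl4a, Hyal2 and Kif1b (r = 0.993, 0.985 and 0.977), with 20. Plin2 encodes a lipid droplet coat protein, and Acadl an enzyme of mitochondrial fatty acid oxidation.

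Red cell markers also differed between the liver libraries, at 158 and 59.0 rescaled units in nuclei and 1879 and 668 in cytoplasm. The share of summed FPKM in the 10 most abundant genes was 13.6% in MIN6 nuclear replicate 1 and 36.8% in replicate 2.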
